A study of Rattus norvegicus with 6 samples.

Results

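The chemokine genes Ccl5, Ccl2, Ccl3, Ccl7, Ccl20, Cxcl1, Cxcl2, Cxcl10, Cxcl12 and Cx3cl1 were examined in cultured neonatal rat ventricular cardiomyocytes (NRVCs). They were chosen by name and found on the array by the accession of each probe in the rat gene table. All 10 were found, among 16569 gene symbols, with 13 probes in all. Cxcl12 had 3 probes, Ccl20 had 2, and the other 8 genes had 1. Where a gene had several probes, the one with the highest mean signal was read. NRVCs are primary cells, taken here from the ventricles of Sprague-Dawley rats aged 1 to 2 days, with 8 to 10 hearts per preparation and a preplating step. Total RNA came from 3 samples of NRVCs in control medium (control) and 3 samples cultured with recombinant C3a at 0.5 µg/ml for 12 h (C3a). The sample records call the medium serum-free, and the methods give 1 h in 1% fetal bovine serum before C3a. The records name no genetic change in either group. The records do not say whether the 3 samples of a group came from separate preparations, so p-values measure only the spread between these samples.

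Chemokines are small secreted proteins that guide leukocytes along a gradient. They are divided by the spacing of their first cysteines into the CC, CXC and CX3C classes, and they act on receptors coupled to G proteins. Many of their genes are switched on by NF-kB and interferon signalling, and in the heart both muscle cells and the cells around them can make chemokines after injury. C3a, the anaphylatoxin released when complement C3 is cleaved, acts on its own G protein-coupled receptor, C3ar1. The comparison asks whether C3a changes the RNA of chemokine genes in these cultures.

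Each sample was labelled with the dye Cy3 and hybridised to its own 1-colour array. All 6 arrays lay on 1 slide with 1 scan, controls on one side and C3a on the other, so slide side and treatment cannot be told apart. Control replicate 1 stood apart, with 38.6% of probes well above background against 53.7% to 57.3% on the other arrays, and its local background had a median of 47 intensity units, compared with 23 or 24. Values below are log2 of the background-corrected signal less the log2 75th percentile of its array, and a difference is C3a minus control on that scale. The level of one probe cannot be set against that of another. Cardiomyocyte markers were well above background on all 6 arrays for all 10 of 11 genes found, Myh6 and Tnnt2 among them, with a summed linear level of 4036 to 5266 in controls and 5063 to 5780 with C3a. The cultures also held RNA of other cells. The summed level was 97.6 to 111 and 96.5 to 113 for the 9 fibroblast markers, which include Col1a1 and Col1a2, and 33.4 to 46.0 and 42.3 to 53.6 for the 7 endothelial markers, which include Vwf and Kdr. It was 33.9 to 39.4 and 35.2 to 37.6 for the 6 smooth muscle and pericyte markers, among them Tagln and Acta2.

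Of the 10 chemokine genes, 7 were well above background on all 6 arrays, 2 on 5 of 6 arrays, and Cxcl2 on none. The 9 genes other than Cxcl2 passed the filter, which kept a probe well above background on all 3 arrays of either group. Ccl5 and Ccl3 passed it through the C3a group only, being well above background on 2 of 3 controls. The filter kept 17519 probes by the controls and 23425 by C3a, so the shares of all genes given below hold for this filter. By limma, 0 of these 9 passed an adjusted p under 0.05, as did 0 of the 10386 genes tested (0.00%). At an unadjusted p under 0.05, limma gave 1 chemokine gene, Ccl5, and 554 genes in all (5.33%), and the methods' test gave Ccl5 as well. All C3a values lay above all control values for 1 of the 9, Ccl5, against 8.16% of all genes, and below them for 0, against 4.84%. The difference lay above 0 for 7 genes and below 0 for Ccl2 and Ccl3, against 60.6% above 0 among all genes, but it lay above 0 for 1 gene without normalization between arrays and for 0 genes with scaling to the spike-in probes. The median difference was 0.068 over the 9 genes and 0.036 over all genes.

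**Figure D1:**
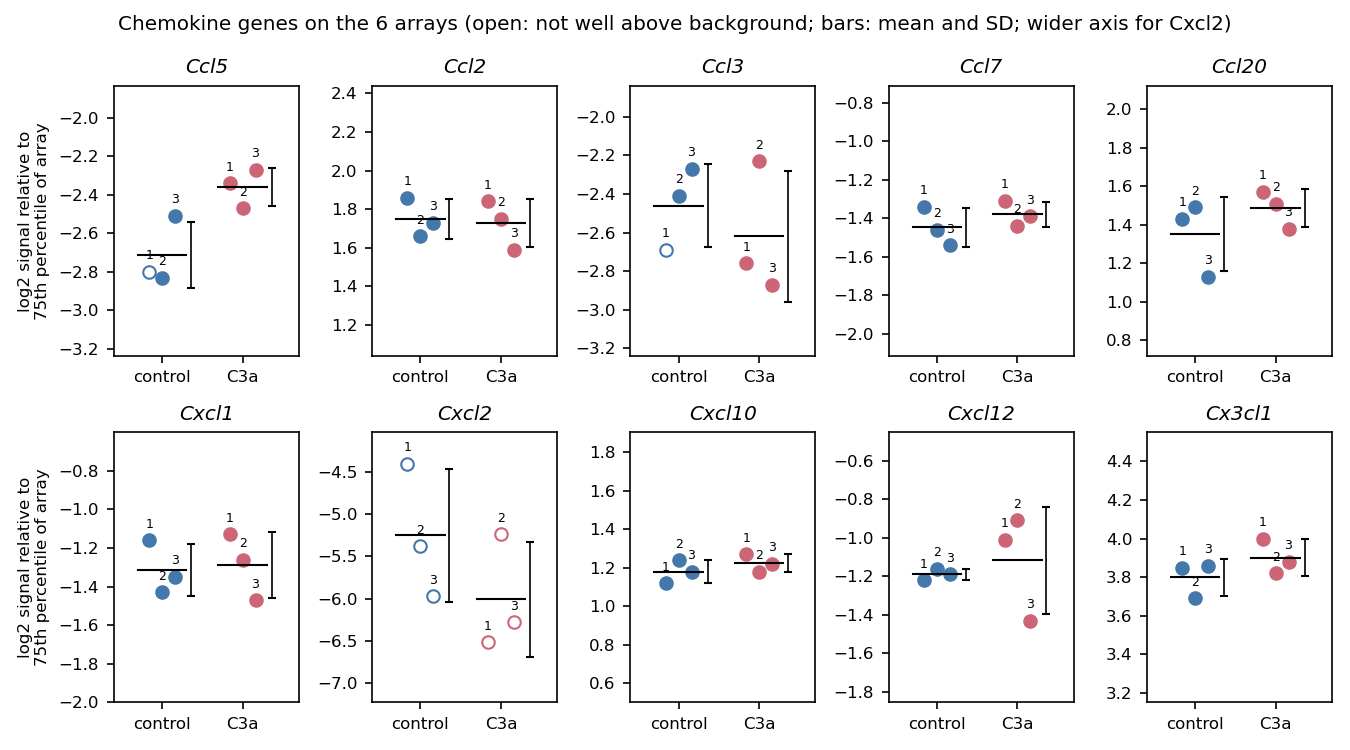
Each panel plots 1 chemokine gene, with the log2 signal less the array's 75th percentile on the vertical axis and the 3 control and 3 C3a arrays as numbered points. Open points were not well above background, lines are group means and bars are 1 SD. On this scale the C3a points lie above all control points for Ccl5, the groups overlap for the other genes, and all points of Cxcl2 are open.

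Ccl5 encodes RANTES, a CC chemokine that attracts T cells, monocytes and eosinophils through receptors that include Ccr1 and Ccr3. Its signal was -2.80, -2.83 and -2.51 on control arrays 1, 2 and 3. With C3a it was -2.34, -2.47 and -2.27. All C3a values lay above all control values, with control replicate 3 just below C3a replicate 2. The means were -2.71 ± 0.17 (SD, n = 3) and -2.36 ± 0.098 (SD, n = 3). The difference was 0.35 (standard error 0.12, 95% interval 0.069 to 0.63), or 1.28-fold (1.05 to 1.55). Its unadjusted p from limma was 0.0217, rank 550 of 23438 probes, and its adjusted p from limma was 0.743. The study singled out Ccl5 among genes enriched with C3a on these samples, so the value is not independent evidence of its direction. It also reported Ccl5 upregulated in wild-type mice after pulmonary artery constriction and suppressed in C3-knockout mice, which these arrays do not measure.

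The Ccl5 probe was dim. Before scaling, it read 39.3, 51.8 and 47.2 intensity units on the control arrays and 45.4, 52.1 and 42.9 on the C3a arrays, where the groups overlap. On control replicate 1 it was not well above background. Without that array the difference was 0.31 (unadjusted p from limma = 0.0672). The unadjusted p from limma also passed above 0.05 without control replicate 2 (0.0582), C3a replicate 1 (0.0582) or C3a replicate 3 (0.0669), and adjusted p from limma lay between 0.253 and 0.997 over all alternatives. With array weights the difference was 0.21 (unadjusted p from limma = 0.0924). Without normalization between arrays it came to 0.026, and scaled to the spike-in probes to -0.098. In a bulk sample, fewer cells of a type and less RNA per cell cannot be told apart. T and NK lymphocytes are a known source of Ccl5. Of their 10 markers, 3 were well above background on all 6 arrays, and Cd3e, Cd3g, Cd8a, Lck, Gzmb and Klrd1 on none. The summed level of the 10, Cd4 and Cd3d included, was 2.18 to 3.05 in controls and 2.53 to 2.92 with C3a.

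Ccl2 and Ccl7, the monocyte chemoattractants that act on Ccr2, are adjacent on chromosome 10, with 0 protein-coding genes between them in the GRCr8 gene table. Ccl2 read 1.86, 1.66 and 1.73 on the control arrays and 1.84, 1.75 and 1.59 with C3a. These values overlap almost throughout. Their difference was -0.022 (standard error 0.11, 95% interval -0.28 to 0.24), or 0.985-fold, with an adjusted p of 0.959 from limma. Ccl7 read -1.34, -1.46 and -1.54 on the control arrays and -1.31, -1.44 and -1.39 with C3a. The groups again overlap, though each C3a array lay above the control of its own number. For Ccl7 the difference was 0.068 (standard error 0.099, 95% interval -0.17 to 0.30), or 1.05-fold, with an adjusted p of 0.842 from limma. Both genes were well above background on all 6 arrays.

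Ccl3, or MIP-1 alpha, attracts monocytes and other leukocytes through receptors that include Ccr1, and lies near Ccl5 on chromosome 10, with 2 protein-coding genes between them. It read -2.69, -2.41 and -2.27 on the control arrays and -2.76, -2.23 and -2.87 with C3a. The C3a arrays held both the highest and the lowest value. On control replicate 1 the probe was not well above background. The difference was -0.16 (standard error 0.19, 95% interval -0.62 to 0.30), or 0.895-fold (0.653 to 1.23), with an adjusted p of 0.811 from limma. It was lower with C3a in 2 of 3 pairs of the same number. Ccl3 had the largest SD of the 9 genes within a group, 0.34 in the C3a arrays.

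Ccl20, the ligand of Ccr6, draws dendritic cells and some lymphocytes to epithelia. It read 1.43, 1.49 and 1.13 on the control arrays and 1.57, 1.51 and 1.38 with C3a, all well above background. Control replicate 3 was the lowest of the 6 arrays, and the groups overlap. Its difference was 0.14 (standard error 0.13, 95% interval -0.16 to 0.43), with a fold interval of 0.895 to 1.35 and an adjusted p of 0.762 from limma. With array weights the difference was 0.28 and its unadjusted p from limma 0.0425. Each C3a array exceeded the control of equal number. A second Ccl20 probe gave 0.12 (standard error 0.14, adjusted p = 0.796 from limma), so both probes were alike in size and direction.

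Cxcl1 and Cxcl2 are CXC chemokines that recruit neutrophils through Cxcr2. They are adjacent on chromosome 14, with 0 protein-coding genes between them. Cxcl1 was well above background on all 6 arrays, and Cxcl2 on none. The promoters of both are shown because these neighbours share a motif and differ in detection, and that of Cxcl10 because it also holds the interferon-type motif. The sequences are from RefSeq on the GRCr8 assembly, run 5′ to 3′ on the strand of the gene and end at the base before the gene start. Capitals mark matches to the NF-kB-type letters GGGANNNNCC on either strand and, in Cxcl10, to the interferon-type letters GAAANNGAAA. They cover chr14:17479322-17479431 (minus strand) for Cxcl1, chr14:17467256-17467365 (minus strand) for Cxcl2 and chr14:15988816-15989065 (plus strand) for Cxcl10.
Cxcl1: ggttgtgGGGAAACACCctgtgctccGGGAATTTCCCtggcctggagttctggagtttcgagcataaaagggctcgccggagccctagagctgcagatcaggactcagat
Cxcl2: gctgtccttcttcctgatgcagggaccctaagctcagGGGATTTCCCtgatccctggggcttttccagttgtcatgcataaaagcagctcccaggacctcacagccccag
Cxcl10: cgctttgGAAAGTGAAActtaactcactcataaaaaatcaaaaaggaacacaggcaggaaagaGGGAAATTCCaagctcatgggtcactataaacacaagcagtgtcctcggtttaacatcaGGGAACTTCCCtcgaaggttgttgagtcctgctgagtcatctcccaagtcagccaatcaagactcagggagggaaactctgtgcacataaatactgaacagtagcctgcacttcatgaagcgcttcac

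The promoter table had an entry for 7 of the 10 genes. In the 250 bases before the start, 5 of them (Ccl7, Ccl20, Cxcl1, Cxcl2 and Cxcl10) held the NF-kB-type letters, as did 16.8% of 27457 rat promoters. In Cxcl1, matches began 103 and 84 bases before the start, and the one of Cxcl2 began 73 bases before it and read the same on both strands. The second stretch of capitals in Cxcl1 and the last in Cxcl10 are 2 matches on opposite strands that overlap, shifted by 1 base. The interferon-type letters were found in Cxcl10 alone among the 7, against 3.29% of all promoters. The TATA-type letters TATAAA on the gene strand were found in Ccl7, Cxcl10 and Cx3cl1 (8.38% of all promoters). They began 34, 162 and 78 bases before the start, in that order. The AP-1-type letters TGANTCA were found in Ccl7 and Cxcl10 (6.36%), and the C/EBP-type letters TTGCNNAA in Cxcl2 (9.2%). A match is a run of letters and does not show binding, and the promoter of Cxcl12, with none of the 5 motifs, lacks only these letters in this window.

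**Figure D2:**
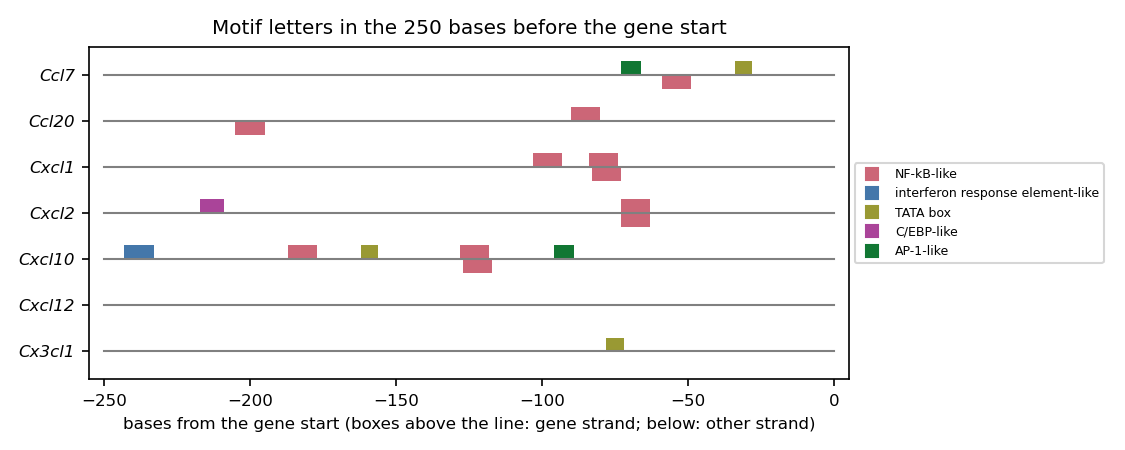
Boxes mark motif letters along the 250 bases before the gene start for the 7 chemokine genes with a promoter entry, with the distance from the start in bases on the horizontal axis, the gene strand above each line and the other strand below. NF-kB-type letters are present in 5 of the 7 and interferon-type letters in Cxcl10 only.

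Cxcl1 read -1.16, -1.43 and -1.35 on the control arrays and -1.13, -1.26 and -1.47 with C3a. The highest and the lowest values were both C3a arrays, and the groups overlap. Its difference was 0.027 (standard error 0.13, 95% interval -0.27 to 0.32), or 1.02-fold, with an adjusted p of 0.956 from limma. The Cxcl2 probe read between 2.52 and 12.9 intensity units over the 6 arrays, not well above background on any, and was not tested. Of 5 neutrophil markers found, S100a8, S100a9, Elane and Csf3r were well above background on no array either. The summed level of the 5, Camp included, was 0.0716 to 0.261 in controls and 0.105 to 0.170 with C3a.

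Cxcl10, the interferon-inducible ligand of Cxcr3, read 1.12, 1.24 and 1.18 on the control arrays and 1.27, 1.18 and 1.22 with C3a. It was well above background on all 6 arrays, with SDs of 0.061 and 0.047 (n = 3 each). The difference was 0.043 (standard error 0.090, 95% interval -0.17 to 0.26), or 1.03-fold, with an adjusted p of 0.893 from limma.

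Cxcl12, or SDF-1, is a homeostatic chemokine of stromal cells that holds progenitor cells through Cxcr4. Its brightest probe read -1.22, -1.16 and -1.19 on the control arrays and -1.01, -0.91 and -1.43 with C3a. The 3 controls nearly coincide (SD 0.030), while C3a replicates 1 and 2 lay above them and C3a replicate 3 below. The difference was 0.073 (standard error 0.15, 95% interval -0.27 to 0.42), or 1.05-fold, with an adjusted p of 0.888 from limma. A second Cxcl12 probe read -1.29, -1.54 and -1.36 on the control arrays and -1.16, -1.28 and -1.24 with C3a. On that probe all C3a values lay above all controls. There the difference was 0.17 (standard error 0.11, 95% interval -0.082 to 0.41), with an adjusted p of 0.743 from limma. The remaining Cxcl12 probe was well above background on no array, so the probes of this gene disagree on detection and on whether the groups overlap. Fibroblasts are among the cells that make Cxcl12. Of their 9 markers, 7 had a difference below 0 (median of the 9, -0.050), while 60.6% of all genes lay above 0. Their summed level overlapped between groups, at 97.6 to 111 in controls and 96.5 to 113 with C3a. Lum, a matrix proteoglycan, had -0.54 (unadjusted p = 0.0369 from limma, not well above background on control replicate 1). The part of fibroblasts in the Cxcl12 result was not tested.

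Cx3cl1, or fractalkine, is the CX3C chemokine, made as a membrane-bound adhesion molecule of endothelium and neurons and released by Adam10 and Adam17. It read 3.85, 3.69 and 3.86 on the control arrays and 4.0, 3.82 and 3.88 with C3a, all well above background. The C3a arrays were higher in 3 of 3 pairs of equal replicate number, but C3a replicate 2 lay below 2 of the controls. The difference was 0.10 (standard error 0.10, 95% interval -0.14 to 0.34), or 1.07-fold, with an adjusted p of 0.775 from limma. The endothelial markers, whose summed level is given above, had a difference above 0 for 4 of 5 genes tested, against 60.6% of all genes. Tek had -0.23. Tie1 and Emcn, which the filter did not keep, had mean differences of -0.72 and -0.20. All C3a values lay below all control values for Tek, as for 4.84% of all genes tested. The same held for Tie1, which is not among the genes of that share. Its probe was not well above background on control replicate 1 and C3a replicate 3. The part of endothelial cells in the Cx3cl1 result was not tested.

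**Figure D3:**
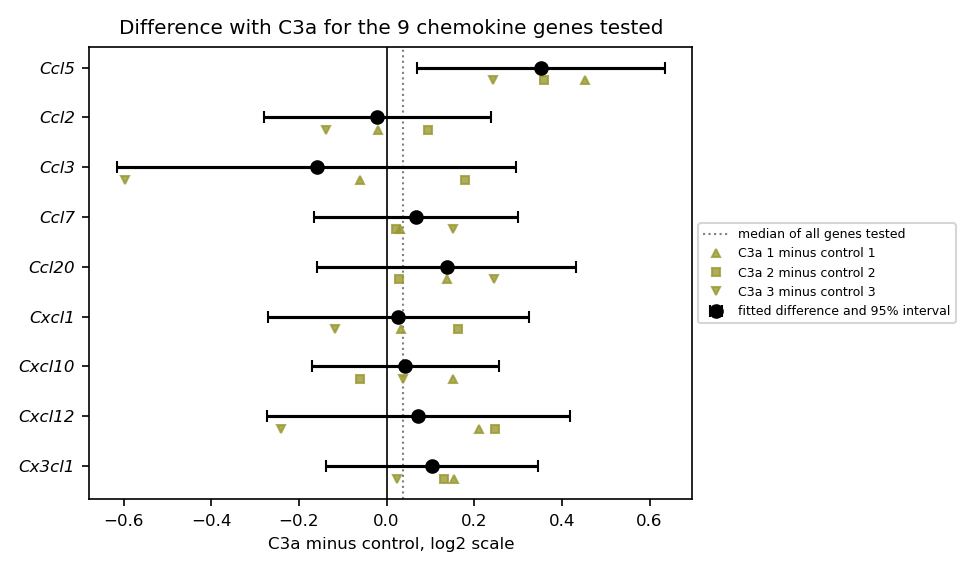
Black points and bars give the fitted difference, C3a minus control on the log2 scale, with its 95% interval for the 9 chemokine genes tested, and small marks give the difference of each pair of equal replicate number. With scaling to the 75th percentile the interval lies above 0 for Ccl5 (the difference is -0.098 with spike-in scaling) and spans 0 for the other 8 genes, and the dotted line is the median of all genes, 0.036.

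Apart from Ccl5, the 8 genes tested had unadjusted p from limma between 0.312 and 0.850, and each difference was smaller than 2 of its standard errors. Their 95% intervals ran from 0.653-fold at the lowest to 1.35-fold at the highest, so changes within that range were not separated from 0 with 3 arrays a group. Within a group, the SD over 3 arrays lay between 0.030 (Cxcl12, control) and 0.34 (Ccl3, C3a). By pair of equal replicate number, 7 genes were higher and 2 lower with C3a in pair 1, 8 and 1 in pair 2, and 5 and 4 in pair 3. The share of all genes was not computed by pair, so these counts are not read as a result about the chemokine genes.

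The sign of most of these differences followed the scaling of the arrays. Without normalization between arrays the median difference of all probes was -0.28 against 0.048, and with the spike-in probes it was -0.40. The median of the 9 chemokine genes was -0.26 and -0.38 in these settings, close to the median of all probes in each setting. Ccl3 was the only 1 of the 9 whose difference kept its sign under all 20 alternatives that measured it.

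**Figure D4:**
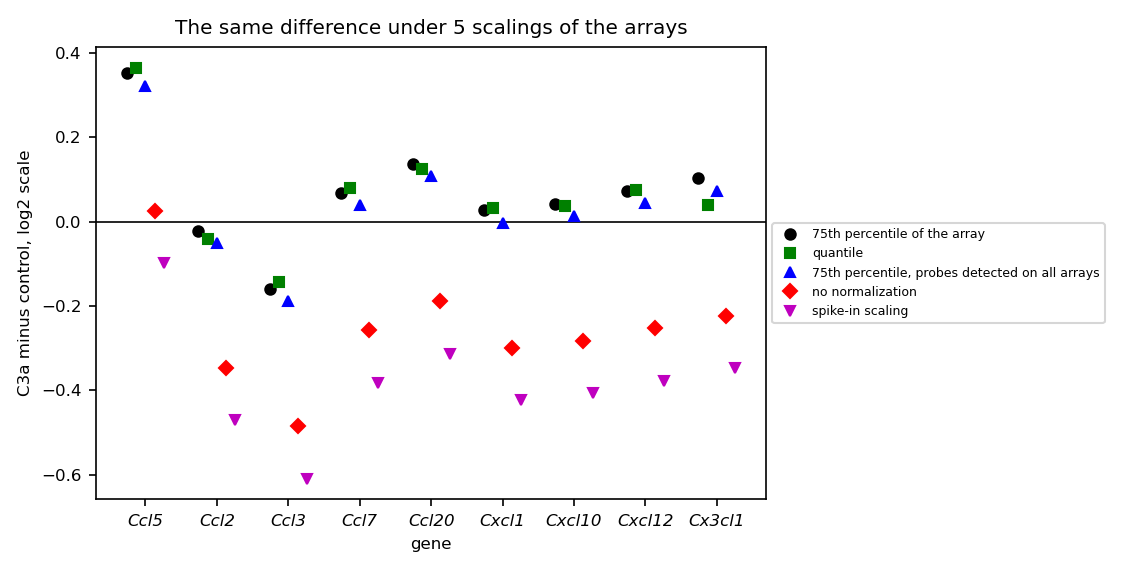
The difference, C3a minus control on the log2 scale, is plotted for the 9 chemokine genes under 5 scalings of the arrays. Circles, squares and upward triangles lie close together for each gene, while without normalization (diamonds) 1 gene lies above 0 and with spike-in scaling (downward triangles) 0 genes do.

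Chemokine receptors mark cells that can respond to these ligands. Of 23 receptors, 20 were on the array, 4 were well above background on all 6 arrays, and 11 on none. Those on none were Ccr1, Ccr2, Ccr3, Ccr4, Ccr6, Ccr7, Cxcr1, Cxcr2, Cxcr3, Xcr1 and Ackr2, which include the receptors named above for Ccl2, Ccl7, Ccl20, Cxcl1, Cxcl2 and Cxcl10. Ccr9, Ccrl2 and Cx3cr1 were among those on all arrays, but another probe of Ccr9 was well above background on no array, so its detection is uncertain. The differences were 0.095 for Ccr9 and 0.26 for Ccrl2 (unadjusted p from limma = 0.540 and 0.0913). Cx3cr1, the receptor of Cx3cl1, read 2.22, 1.52 and 2.25 on the control arrays and 2.29, 2.22 and 2.37 with C3a. Control replicate 2 lay apart from the other 5 arrays, and the difference was 0.30 (unadjusted p = 0.177 from limma). Cxcr4, the receptor of Cxcl12, cleared the background on 2 controls and on all 3 C3a arrays, with a difference of -0.022 (unadjusted p = 0.916 from limma).

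**Figure D5:**
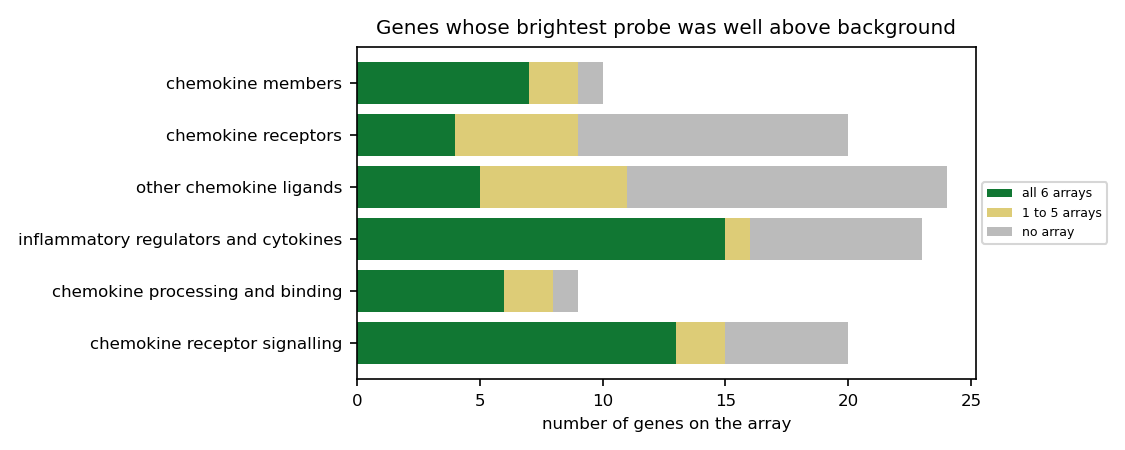
Bars count the genes on the array in 6 gene groups by the number of arrays, all 6, 1 to 5, or none, on which the brightest probe was well above background. Of 10 chemokine genes, 7 were above background on all arrays, against 4 of 20 receptors and 5 of 24 other ligands.

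Of 24 other chemokine ligands on the array, 5 were well above background on all 6 arrays and 13 on none. With C3a, the difference was 0.42 for Ccl22, 0.23 for Ccl27, 0.056 for Cxcl11 and -0.039 for Cxcl16 (adjusted p from limma between 0.743 and 0.923). For Ccl22, the other 2 probes were well above background on 5 of 6 arrays each. Their control means were -2.36 and -2.48, against 4.11 for the brightest probe. The probes of Ccl22 thus disagree widely on level, so its level is uncertain. The receptors, other ligands and 3 further lists held 51 genes tested. At an unadjusted p under 0.05, limma gave 2 of these 51 (3.92%, against 5.33% of all genes), 1 receptor and 1 ligand. The receptor was Cxcr5, a chemokine receptor carried by B cells, with a difference of 0.43 (standard error 0.15, adjusted p = 0.743 from limma). Xcl1, a ligand made by T and NK cells, had a difference of 0.68 (standard error 0.18, adjusted p = 0.743 from limma). Like Ccl5, both probes were not well above background on control replicate 1 and passed the filter through the C3a group only. A second Cxcr5 probe was well above background on no array. With the replicate block, 6 of the 51 (11.8%) passed the unadjusted threshold, against 11.9% of all genes. These were Ccrl2, Cxcr5, Ccl22 and Xcl1, with differences above 0, and Nfkb1 and Sdc4, with differences below 0.

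Inflammatory regulators, some of which drive chemokine transcription, were measured on the same arrays with cytokines and adhesion molecules. Of 23 inflammatory regulators and cytokines found, 15 were well above background on all 6 arrays, while Tnf, Il1a, Il1b, Il6, Sele, Selp and Csf2 were on none. None of the 16 tested passed an unadjusted p under 0.05 by limma. Of them, 7 lay above 0 and 9 below, against 60.6% of all genes above 0, and their median was -0.0075. With the replicate block Nfkb1 passed it (unadjusted p = 0.0247, adjusted p = 0.306 from limma, lower in 3 of 3 pairs). The NF-kB subunits Nfkb1, Nfkb2 and Rela had differences of -0.30, -0.11 and -0.19, and their inhibitor Nfkbia had -0.024 (unadjusted p from limma between 0.0635 and 0.837). Among 9 genes that process or bind chemokines, 6 were well above background on all arrays and Mmp9 on none. The sheddase Adam10 had a difference of 0.066, the protease Mmp2 0.053, and the proteoglycans Sdc1 and Sdc2 had -0.059 and -0.12 (adjusted p from limma between 0.759 and 0.919). Of 20 genes of receptor signalling, 13 were well above background on all arrays and 5 on none. There the G protein subunits Gnai2, Gnai3 and Gnb1 had differences of 0.17, 0.11 and 0.13, and the arrestin Arrb1 had 0.061 (adjusted p from limma between 0.743 and 0.872). Another Arrb1 probe was well above background on no array, so its detection is uncertain. The medians were -0.059 for processing and 0.10 for signalling genes, with 0 of 7 and 0 of 15 tested genes at an unadjusted p under 0.05 by limma. With the replicate block the proteoglycan Sdc4, at -0.22, passed it among the 7 (unadjusted p = 0.0468, adjusted p = 0.361 from limma).

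Macrophages are another source of chemokines. Of their 12 markers, 3 were well above background on all 6 arrays, and Cd163, Mrc1 and C1qa on none. The summed level, Lyz2 and Cd68 included, was 6.24 to 7.94 in controls and 6.32 to 6.90 with C3a. Itgam, an integrin of myeloid cells, had a difference of 0.63 (unadjusted p = 0.00700, adjusted p = 0.743 from limma). Like Ccl5, it was not well above background on control replicate 1 and passed the filter through the C3a group only. Of the 6 macrophage markers tested, 4 lay above 0, against 60.6% of all genes, and 2 below, Lyz2 at -0.088 and Cd68 at -0.16. The part of these cells in the Ccl5 difference was not tested. C3ar1, the receptor of C3a, read -1.88, -2.13 and -2.24 on the control arrays and -1.83, -2.21 and -1.93 with C3a. The brighter of its 2 probes was well above background on all 6 arrays, and the groups overlap. The difference was 0.092 (standard error 0.14, 95% interval -0.25 to 0.43).

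Over the 6 arrays, the genes whose values most resembled those of Ccl5 included Resp18 (r = 0.995) and Or8c19 (r = 0.994), by Pearson correlation among 10385 genes. The 6 points are the same arrays and share their scaling, and 184 genes had r above 0.9. Resp18, a protein of endocrine cells, had a difference of 0.12, and Or8c19, an olfactory receptor, had 0.61. Because they were picked for resembling Ccl5 on these arrays, their direction is not a separate result. Both probes were not well above background on control replicate 1 and passed the filter through the C3a group only.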

How the data were processed

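Gene expression was measured in 3 control and 3 C3a samples of NRVCs, grouped by their titles. The authors deposited spot intensities from Agilent Feature Extraction 11.5.1.1, corrected for background and not scaled between arrays, per the file headers. A second deposited file, with log2 values of 36638 probes, differed by a median of 0.004 from log2 intensity less the array's 75th percentile. The genome build of the array was not used, and genes were named through the GRCr8 gene table, which held the accession of 21085 of 45598 probes (46.3%).

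Of 62976 spots, 4259 control spots were left out, the spots of a probe were averaged, and each array was scaled to its 75th percentile on the log2 scale. The filter kept 23438 probes that were well above background throughout at least 1 group (17519 by the controls, 23425 by C3a), and 10386 genes had their brightest probe among them. The groups were compared with limma 3.58.1 in R 4.3.3, two-sided, with Benjamini-Hochberg adjustment over all kept probes. The step was tested on simulated data. The methods' test, an equal-variance comparison of the same values, was an alternative. Precision is limited by the number of arrays.

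The chemokine genes and the lists were chosen with earlier results of these data known. All 10 chemokine genes are named, with C3ar1, the 3 genes most like Ccl5, genes of each list with an unadjusted p under 0.05 and up to 4 of those well above background on all arrays, and of the markers those on no array and the 2 brightest. Other genes are named where a count or a ligand turns on them, and the results of 2 genes that the rule names are not reported here. The alternatives changed the scaling, background correction, filter, probe choice, weights, variance trend, source table or test, or left out an array. Normexp (offset 50) used the median spot signal, the signal column read here for it. Equal replicate numbers paired the samples: the deviations from the group means correlated at 0.28, 0.32 and 0.31 for equal numbers and at -0.26 to -0.093 for others. The pairing comes from these values, since the records give only the number. Whether equal numbers share a preparation or a position on the slide was not tested. Slide and scan could not be a block, with 1 of each. Python 3.11.15, pandas 2.3.3 and matplotlib 3.10.9 were used for tables and figures.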

Additional observations from a re-analysis of the deposited data

How the results depend on the processing

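No chemokine gene passed the adjusted threshold under any limma setting, and 1 (Ccl5) did in the methods' test without adjustment, against 0 in the main comparison. At an unadjusted p under 0.05 the count of 1, Ccl5, became 0 without normalization between arrays, with spike-in scaling, with a filter on all 6 arrays (where the Ccl5 probe is not tested), without a filter and with a variance trend. With array weights the count stayed at 1 but the gene was Ccl20 with a difference of 0.28, while Ccl5, at 0.21, did not pass. Leaving out 1 array gave 0 to 1. For the other lists, the count of 2 became 1 with quantile normalization, 4 without normalization, 5 with normexp, 4 with the mean over the probes of a gene and 4 with a variance trend, and 1 to 3 without 1 array. With the replicate block it became 6, all with an adjusted p of at least 0.239 from limma, and Ccl5 had an adjusted p of 0.253 there. Among the markers, Lum (p from limma = 0.00518), Itgam (0.0121), Actn2 (0.0149), Acta2 (0.0378) and Tnnc1 (0.0385) passed the unadjusted threshold with the block, as did 11.9% of all genes. No gene passed the adjusted one. Without normalization the difference was -0.26 for Ccl7, -0.19 for Ccl20, -0.30 for Cxcl1, -0.28 for Cxcl10, -0.25 for Cxcl12 and -0.22 for Cx3cl1. With spike-in scaling it was -0.098 for Ccl5, -0.38 for Ccl7, -0.31 for Ccl20, -0.42 for Cxcl1, -0.41 for Cxcl10, -0.38 for Cxcl12 and -0.35 for Cx3cl1. With the percentile taken over probes detected on all arrays, Cxcl1 was at -0.0020. Leaving out 1 array gave -0.078 to 0.047 for Ccl2, -0.051 to 0.12 for Cxcl1 and -0.030 to 0.23 for Cxcl12. The other 6 genes kept their sign there, with 0.29 to 0.45 for Ccl5, -0.35 to -0.035 for Ccl3, 0.020 to 0.12 for Ccl7, 0.028 to 0.20 for Ccl20, 0.012 to 0.072 for Cxcl10 and 0.047 to 0.14 for Cx3cl1. Over all probes, limma gave at that threshold 783 higher and 581 lower. The counts were 41 and 2558 without normalization, 9 and 1702 with spike-in scaling, and 1832 and 1366 with the replicate block. They were 359 and 676 without a filter and 370 and 639 with the filter on all 6 arrays. With the percentile over probes detected on all arrays they were 565 and 725, with normexp 681 and 699, and with a variance trend 709 and 803. The cause of these shifts was not tested. Signal over background limits Cxcl2, which could not be tested, and Ccl5 and Ccl3, which were not well above background on control replicate 1.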
